A study of Mus musculus with 48 samples.

Results

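The transcripts described here are those of 8 genes of cholesterol metabolism in mouse embryonic stem cells, Hmgcs1, Idi1, Sqle, Lss, Srebf1, Srebf2, Scap and Insig1. They are a list of named genes with no threshold on their values, and they make up 8 of the 23862 gene identifiers in the data. All 8 were listed in each of the 48 libraries, as were 10694 identifiers altogether. Hmgcs1, Idi1, Sqle and Lss encode enzymes of cholesterol synthesis, and Srebf1, Srebf2, Scap and Insig1 encode the proteins that set how much of those enzymes a cell makes. The set was named for synthesis and uptake, but none of the 8 encodes an uptake receptor, so genes of sterol uptake were taken from a separate list.

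The cells were E14TG2a, a line of mouse embryonic stem cells kept in 2i + LIF medium, and every library came from cells given 1 µM flavopiridol, a drug that blocks CDK-driven elongation by RNA polymerase II. Polyadenylated RNA was sequenced from the total extract, the nucleus, the cytosol and the membrane fraction after 30, 60, 120 and 240 min of block, with 3 independently passaged replicates in each of the 16 groups. Digitonin freed the cytosol and a stronger detergent then freed the membrane fraction, which holds the endoplasmic reticulum, and the buffers contained cycloheximide, which keeps ribosomes on mRNA. Each value is the level of a transcript divided by the level of that fraction at 0 min, after the authors had scaled libraries on genes with half-lives over 14 h, so a ratio of 1 means no change, and ratios do not tell how much of a transcript lies in one fraction or another. The 0 min libraries were not analysed here, and all groups share the inhibitor, its dose and the cell line.

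A library listed between 15067 and 19501 genes, and genes at 0 were not listed. Replicates of a group differed in every value, so none was a copy of another. The nuclear 30 min library of replicate 1 stood apart, with a median log2 ratio of -0.85 against -0.10 and -0.31 in replicates 2 and 3, and nuclear results are also given without it where that changed a call. Of 8 markers of embryonic stem cells all 8 were listed in some library and 6 in all 48, among them Pou5f1, Sox2 and Nanog. Of 4 markers of primitive endoderm 2 were listed in any library and 0 in all, with Gata4 and Pdgfra in none. Markers of other lineages were listed too: the mesodermal markers Eomes and Mixl1 in 48 and 44 libraries and the neural markers Sox1 and Pax6 in 47 and 7, against 47 and 37 for the stem cell markers Zfp42 and Esrrb. Being listed thus does not separate the lineages, and their part in the results was not tested. Ratios carry no level, so the strength of these markers and the read depth behind each value are unknown.

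Cholesterol is built from acetyl-CoA through mevalonate, isoprenoid units, squalene and lanosterol, mostly on the endoplasmic reticulum. SREBP-1 and SREBP-2, the products of Srebf1 and Srebf2, are transcription factors made as precursors in the membrane of the endoplasmic reticulum, and the escort protein SCAP carries them to the Golgi for cleavage when sterols are low, while INSIG-1 holds the complex back when sterols are plentiful. The freed SREBP-2 switches on genes of cholesterol synthesis, Insig1 and its own gene, whereas SREBP-1 acts mainly on fatty acid genes. Proteins that span a membrane are translated on ribosomes at the endoplasmic reticulum, while soluble enzymes are generally translated in the cytosol.

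Positions are given in GRCm38 from GENCODE release M21, which need not be the annotation the authors counted on, and each value covers the gene as a whole. The enzyme genes are Hmgcs1 (ENSMUSG00000093930, chr13:119690379-119708260, plus strand), Idi1 (ENSMUSG00000058258, chr13:8885501-8892451, plus strand), Sqle (ENSMUSG00000022351, chr15:59315077-59331192, plus strand) and Lss (ENSMUSG00000033105, chr10:76531588-76557138, plus strand). The control genes are Srebf1 (ENSMUSG00000020538, chr11:60199089-60222581, minus strand), Srebf2 (ENSMUSG00000022463, chr15:82147181-82205379, plus strand), Scap (ENSMUSG00000032485, chr9:110333288-110384950, plus strand) and Insig1 (ENSMUSG00000045294, chr5:28071363-28078662, plus strand). Hmgcs1, Idi1, Lss, Srebf1 and Scap overlap another gene on the opposite strand, Srebf1 and Srebf2 hold microRNA genes on their own strand, and Srebf2 also overlaps the predicted gene Gm49502 there. The library kit keeps strand, but the strand setting of the counting is not given in the sources used here, so reads of a gene and its partner cannot be told apart in these 6 genes.

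Because the data follow RNA after synthesis stops, the 3′ untranslated regions were searched on the sense strand for ATTTA, the core of AU-rich elements known from unstable mRNAs. Over 8373 genes, 67.6% held at least 1 copy, with a median of 1. The counts were 4 in Hmgcs1, 6 in Idi1, 0 in Sqle, 2 in Lss, 1 in Srebf1, 2 in Srebf2, 1 in Scap and 4 in Insig1. The regions were 1782 bases long in Hmgcs1, 1816 in Idi1, 275 in Sqle and 2411 in Lss. In Srebf1, Srebf2, Scap and Insig1 they were 833, 1462, 149 and 1842 bases long, against a median of 1029 over the 8373 genes. Sqle, with 0 copies, had the lowest slope of the 8 in total RNA. Whether the counts go with the falls was not tested. The longer form TTATTTATT, which contains ATTTA, was found in 0 of the 8 and in 7.27% of the genes searched. Windows of the enzyme genes Hmgcs1 and Idi1, whose transcripts had the lowest late changes in total RNA, are set beside those of Srebf2, whose transcript had the highest, with ATTTA in capitals (plus strand, GENCODE, GRCm38).
Hmgcs1 chr13:119706921-119706949: gggggttgtgaaATTTAaatgttacacac
Hmgcs1 chr13:119706968-119706996: ggcaaggcaaacATTTAtctttttcaaag
Hmgcs1 chr13:119707394-119707422: atccgttcgaaaATTTAacccacattttc
Idi1 chr13:8890809-8890837: tctgtaaaagatATTTAggtgaggttatt
Idi1 chr13:8890853-8890881: aagtaaaacttaATTTAgcctgtccaaat
Idi1 chr13:8891474-8891502: tttggcccacagATTTAaaaggccagttc
Idi1 chr13:8892294-8892322: tctgaacagttgATTTAtcattggggata
Idi1 chr13:8892327-8892355: tatgttgcaagaATTTAttgaaaattaaa
Srebf2 chr15:82204661-82204689: aaatggtatcttATTTAattgtcctgttc
Srebf2 chr15:82205177-82205205: accatcactgtaATTTAtggcccccgccg

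A match of these letters is a description of the sequence and not a site shown to act. The 250 bases before each RefSeq start (RefSeq, GRCm38.p6) were also searched on both strands for TCACNCCAC, the letters of a sterol regulatory element that SREBPs bind, and for CCAAT, the box of their partner NF-Y. The table held 10 promoters of 7 of the genes, with 2 for Scap and 3 for Srebf1, and none of Sqle was searched. TCACNCCAC was found in a promoter of 1 of these 7 genes, Hmgcs1, and in 1.05% of all 32851 promoters. CCAAT was found in at least 1 promoter of 6 of the 7 and in 33.8% of all promoters, a share counted per promoter and not per gene. The Hmgcs1 promoter, at chr13:119690101-119690350 on the plus strand, is shown as the case with both, and capitals mark TCACCCCAC and 3 copies of ATTGG, which is CCAAT read on the other strand.
Hmgcs1 promoter: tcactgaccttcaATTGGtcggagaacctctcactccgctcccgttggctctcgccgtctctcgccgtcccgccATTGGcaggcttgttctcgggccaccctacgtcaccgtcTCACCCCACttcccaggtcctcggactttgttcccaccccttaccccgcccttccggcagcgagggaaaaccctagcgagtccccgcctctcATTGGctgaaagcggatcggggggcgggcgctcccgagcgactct

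The first question was how far each transcript fell during the block. Slopes of log2 ratio on time were fitted with limma over the 12 libraries of a fraction, and all 8 genes fell in each of the 4 fractions at an adjusted p under 0.05. These falls are relative to the authors' scaling. After centring of every library on the median gene 5 of the 8 remained in nucleus, cytosol and membrane. With centring 3897 of 13343 nuclear, 3887 of 11979 cytosolic and 3837 of 12408 membrane genes fell. The calls lost, beside those given for single genes further on, were Idi1 and Lss in the nucleus, at -0.14 and -0.11 (adjusted p = 0.19 and 0.207), Insig1 in the membrane fraction, at -0.21 (adjusted p = 0.0781), and Scap in total RNA, cytosol and membrane, at -0.055, -0.077 and -0.024. Falling is common after a block: 56.9% of 12762 genes fell in total RNA, 61.9% of nuclear, 67.1% of cytosolic and 62.2% of membrane genes. The median slope of the 8 genes was -0.53 log2 per h in total RNA against -0.22 over all genes. It was -0.53 against -0.30 for nuclear, -0.53 against -0.28 for cytosolic and -0.57 against -0.26 for membrane RNA. In polyadenylated RNA from many cells, less RNA per cell and fewer cells that hold it cannot be told apart.

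Hmgcs1 encodes the cytosolic HMG-CoA synthase, an early enzyme of the mevalonate steps. In total RNA its ratio was 0.852, 0.955 and 0.907 in replicates 1, 2 and 3 at 30 min, 0.803, 0.838 and 0.935 at 60 min, 0.590, 0.761 and 0.788 at 120 min and 0.168, 0.157 and 0.140 at 240 min. The 30 and 60 min groups overlapped, the 120 min group lay below both, and the 240 min libraries stood far below the rest. The slope in total RNA was -0.75 ± 0.073 log2 per h (SE, limma adjusted p = 1.78e-06). In the nucleus its ratio was 1.14, 1.16 and 1.02 at 120 min, above 1 in all 3 replicates on the authors' scaling, and 0.298, 0.271 and 0.253 at 240 min. Whether the 120 min ratio departed from 1 was not tested.

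Idi1 encodes the isomerase that turns isopentenyl diphosphate into dimethylallyl diphosphate. Its total RNA ratio was 0.759, 0.959 and 0.813 at 30 min, 0.708, 0.846 and 0.831 at 60 min, 0.600, 0.804 and 0.870 at 120 min and 0.196, 0.198 and 0.162 at 240 min. The first 3 times overlapped, and only the last stood below. The nuclear ratios were 1.22, 1.26 and 1.15 at 60 min, 1.13, 1.07 and 1.02 at 120 min and 0.326, 0.394 and 0.373 at 240 min, and the slopes were -0.64 ± 0.079 in total RNA and -0.46 ± 0.074 log2 per h in the nucleus (SE). Of the 8 genes Hmgcs1 and Idi1 had the closest courses, with a root mean square difference of 0.32 log2 over the 16 group means.

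Sqle encodes squalene epoxidase, a membrane-bound enzyme and a second control point of the pathway. It had the lowest slope of the 8 genes in total RNA, -0.83 ± 0.06 log2 per h (SE, limma adjusted p = 1.66e-07), lower than that of all but 7.84% of genes. Its total RNA ratio was 0.732, 0.640 and 0.745 at 30 min, 0.492, 0.380 and 0.612 at 60 min, 0.357, 0.323 and 0.320 at 120 min and 0.0821, 0.118 and 0.0781 at 240 min, so replicates of successive times did not overlap. In the cytosol the replicates of Sqle spread widely, with 0.871, 0.503 and 0.326 at 30 min and 0.366, 0.838 and 0.192 at 60 min, and its cytosolic slope of -0.42 ± 0.14 (adjusted p = 0.0152) lost its call without replicate 1, at -0.42, without replicate 2, at -0.33, and after centring of every library on the median gene, at -0.14.

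Lss encodes lanosterol synthase, which closes the sterol rings. In total RNA its ratio was 0.891, 0.894 and 0.875 at 30 min, 0.915, 0.868 and 0.819 at 60 min, 0.704, 0.725 and 0.761 at 120 min and 0.341, 0.289 and 0.296 at 240 min, with each of the last 2 groups below the one before. The slope was -0.45 ± 0.041 log2 per h in total RNA and lay between -0.53 and -0.42 in the other fractions.

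Srebf1 is the gene of SREBP-1. Its total RNA ratio was 0.968, 0.777 and 0.869 at 30 min, 0.700, 0.709 and 0.693 at 60 min, 0.436, 0.322 and 0.350 at 120 min and 0.215, 0.235 and 0.227 at 240 min, and the groups followed each other without overlap. The slope was -0.56 ± 0.052 log2 per h (SE, limma adjusted p = 1.21e-06), and in the nucleus it was -0.70 ± 0.073.

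Srebf2, the gene of SREBP-2, had the highest slope of the 8 in every fraction. In total RNA its ratio was 0.930, 0.880 and 0.908 at 30 min, 0.828, 0.792 and 0.839 at 60 min, 0.692, 0.589 and 0.619 at 120 min and 0.594, 0.683 and 0.613 at 240 min, so the last 2 times overlapped. Its slopes were -0.15 ± 0.036 log2 per h for total RNA (adjusted p = 0.00308), -0.27 ± 0.062 for nuclear, -0.11 ± 0.03 for cytosolic and -0.20 ± 0.035 for membrane RNA. These lie above the median gene in all 4 fractions, and after centring of every library on the median gene the slope of Srebf2 was above 0 in all 4, at 0.082, 0.047, 0.17 and 0.056, of which those in total RNA and cytosol passed the test (adjusted p = 0.0482 and 0.000489). Its nuclear fall also lost its call without replicate 3, at -0.20. The fall of Srebf2 thus depends on the scaling of the libraries. Centring moves the median slope of all genes from -0.22 to 0.0052 log2 per h in total RNA.

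Scap, the gene of the escort protein, had a total RNA ratio of 0.805, 0.580 and 0.623 at 120 min and 0.467, 0.552 and 0.467 at 240 min, and a slope of -0.28 ± 0.037 log2 per h. With centring this slope was -0.055 and no longer passed. In the nucleus Scap fell further, to 0.194, 0.166 and 0.122 at 240 min, with a slope of -0.54 ± 0.073. Insig1, the gene of the sterol-sensing anchor, had a total RNA ratio of 0.689, 0.780 and 0.795 at 60 min, 0.585, 0.679 and 0.722 at 120 min and 0.257, 0.274 and 0.196 at 240 min, so that the 60 and 120 min groups overlapped and the 240 min group stood below. Its slope was -0.51 ± 0.056 log2 per h in total RNA (limma adjusted p = 5e-06).

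**Figure D1:**
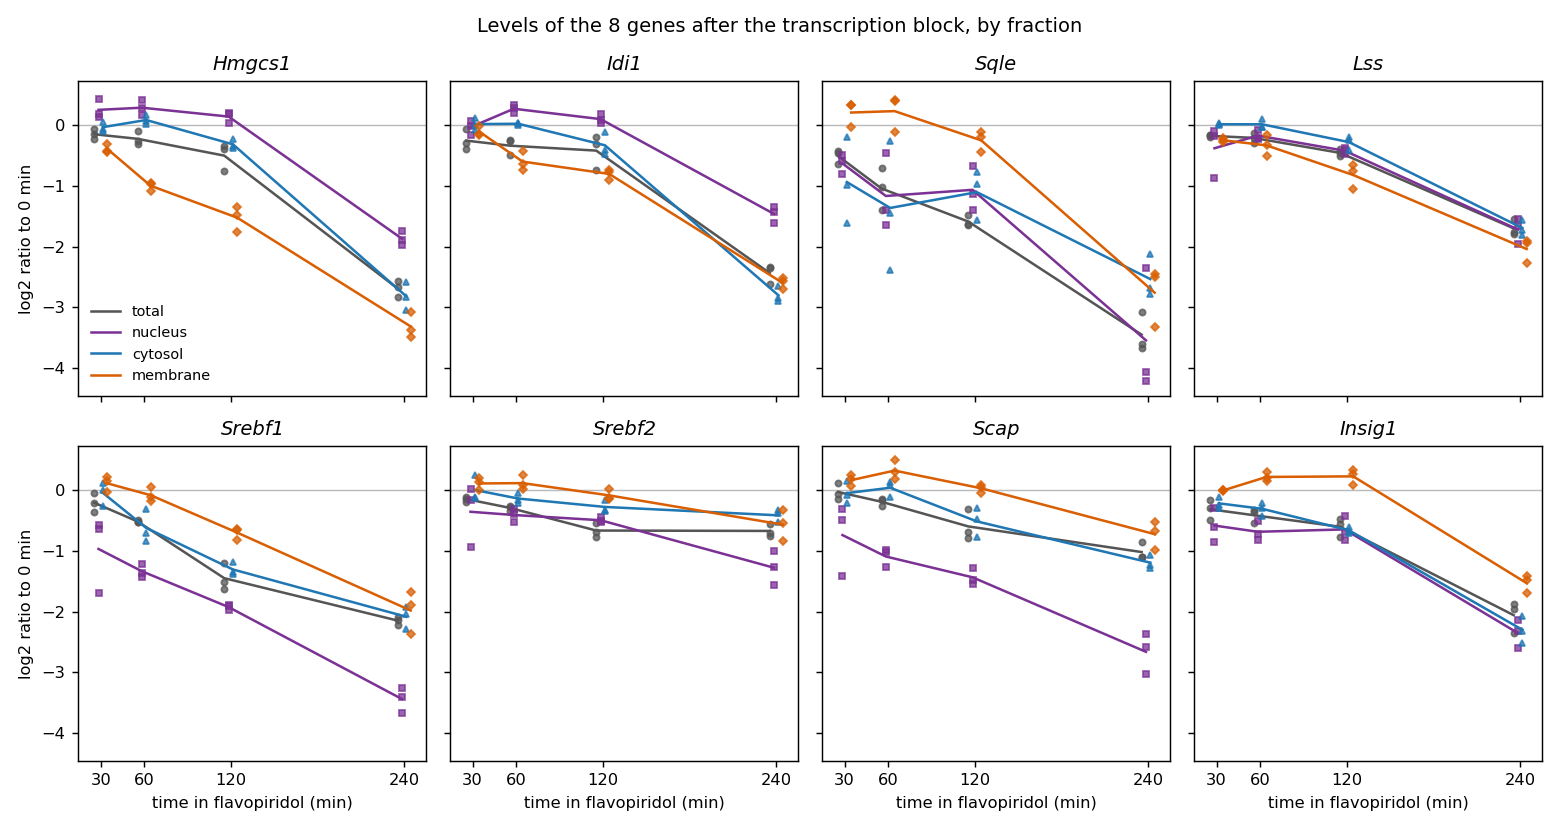
Log2 ratio to 0 min (vertical axis) against time in flavopiridol in min (horizontal axis) for each of the 8 genes, with grey circles for total RNA, purple squares for nucleus, blue triangles for cytosol and orange diamonds for membrane, 1 point per replicate and lines through the means, slightly shifted in time for clarity. Hmgcs1 and Idi1 drop further from 120 to 240 min than before 120 min in total RNA, nucleus and cytosol, Srebf2 has the highest slope in every fraction, and the membrane line lies lowest for Hmgcs1 and highest for Insig1 at 60 and 120 min.

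The 8 genes were then compared by when they fell. From 30 to 60 min 0 of the 8 passed the test in total RNA, nucleus or cytosol, where 2.32%, 2.18% and 1.89% of all genes fell. In the membrane fraction, where 12.7% of all genes fell, Hmgcs1 and Idi1 did, with log2 changes of -0.61 and -0.49. From 60 to 120 min Srebf1 and Srebf2 fell in total RNA (26.5% of all genes), 0 of the 8 in the nucleus (12.1%), all but Sqle and Srebf2 in the cytosol (34.5%), and Hmgcs1, Lss and Srebf1 in the membrane fraction (25.6%).

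The last interval, 120 to 240 min, held the largest changes of Hmgcs1, Idi1, Sqle, Lss and Insig1 in total RNA. It was also the longest interval, so a larger change need not be a faster one. In the test per hour given below, Hmgcs1, Idi1 and Lss steepened in total RNA, and Sqle and Insig1 did not pass. All 8 genes fell in nucleus and membrane over that interval, where 34.3% and 37.6% of all genes did, and all but Srebf2 fell in total RNA (29.2%) and in the cytosol (47.9%). In total RNA the log2 change was -2.19 ± 0.14 for Hmgcs1 (SE, limma adjusted p = 2.17e-05), -2.02 ± 0.17 for Idi1, -1.87 ± 0.21 for Sqle, -1.46 ± 0.15 for Insig1 and -1.24 ± 0.10 for Lss. The median over all genes was -0.25, and the change of Hmgcs1 was lower than that of all but 1.76% of genes. Srebf1 and Scap changed by -0.70 and -0.42, and Srebf2 by -0.0065 ± 0.093 (adjusted p = 0.966, 95% interval -0.21 to 0.20). With 1 replicate left out the calls of Hmgcs1, Idi1, Sqle, Insig1 and Lss in total RNA held, that of Srebf1 was lost without replicate 3, at -0.74, and that of Scap whichever was left out, with values from -0.60 to -0.24. Centring also ended both calls, at -0.45 and -0.18.

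In the other fractions the same interval gave -2.02, -2.51 and -1.79 for Hmgcs1 in nucleus, cytosol and membrane, in that order. For Idi1 the changes were -1.56, -2.47 and -1.80, and for Insig1 -1.71, -1.64 and -1.76. Sqle changed by -2.48, -1.43 and -2.51. The medians over all genes were -0.50, -0.50 and -0.38, so these 4 transcripts changed by more than the median gene in each compartment. Lss changed by -1.30, -1.42 and -1.22, Srebf1 by -1.52, -0.78 and -1.28, Scap by -1.23, -0.68 and -0.76, and Srebf2 by -0.78, -0.14 and -0.48, of which the cytosolic value did not pass. With 1 replicate left out Hmgcs1, Idi1, Insig1 and Lss kept their calls in all 3 fractions. The cytosolic call of Sqle was lost whichever was left out, with values from -1.87 to -1.19, and its nuclear call without replicate 2, at -2.18. Without replicate 2 or 3 the nuclear calls of Srebf1, at -1.56 and -1.40, of Srebf2, at -0.77 and -0.66, and of Scap, at -1.32 and -1.06, were lost. The cytosolic call of Scap was lost without replicate 3, at -0.65, and the membrane call of Srebf2 without replicate 1 or 3, at -0.45 and -0.37. Centring ended the cytosolic calls of Srebf1, at -0.28, Scap, at -0.18, and Sqle, at -0.93, and the nuclear and membrane calls of Srebf2, at -0.26 and -0.11.

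Whether the fall steepened was tested directly, a test added after the late fall had been seen. The log2 change per hour from 120 to 240 min minus that from 30 to 120 min had a median of 0.25 over all genes in total RNA. With the authors' scaling the median gene thus slowed. Scaling to the same sum gave median changes of -0.023 from 30 to 60, -0.050 from 60 to 120 and -0.165 from 120 to 240 min. Whether the median gene slowed therefore depends on the scaling. The difference per hour was below 0 at an adjusted p under 0.05 for 0.666% of all genes in total RNA, and for Hmgcs1 at -0.86 ± 0.14, adjusted p = 0.00543, Idi1 at -0.90 ± 0.17, adjusted p = 0.00961, and Lss at -0.44 ± 0.10, adjusted p = 0.0189. Srebf2 went the other way, at 0.34 ± 0.094, adjusted p = 0.0409, with 12.6% of all genes past the threshold in either direction, but that call was lost whichever replicate was left out and with centring, at 0.071. In the nucleus Insig1, Idi1 and Hmgcs1 steepened (1.31% of all genes), in the cytosol Lss, Insig1, Idi1 and Hmgcs1 (1.75%), and in the membrane fraction Sqle, Insig1 and Idi1 (2.82%).

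The largest such difference in the membrane fraction was that of Insig1, at -1.04 ± 0.10, adjusted p = 0.000686, and the largest in the cytosol that of Hmgcs1, at -1.07 ± 0.12, adjusted p = 0.00133. Hmgcs1 did not pass in the membrane fraction. With 1 replicate left out the number of genes that steepened was between 0 and 2 for total and nuclear RNA, 0 for the cytosol whichever was left out, and between 0 and 1 for the membrane fraction, while no called value changed sign.

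**Figure D2:**
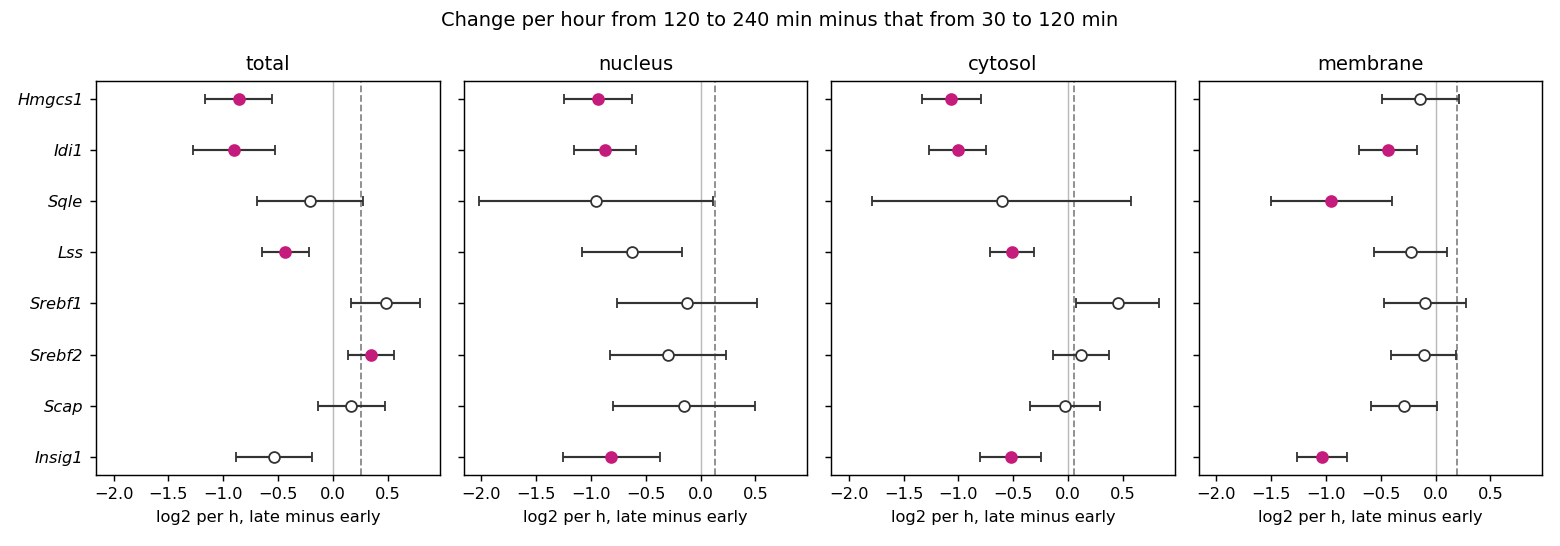
Change in log2 ratio per hour from 120 to 240 min minus that from 30 to 120 min (horizontal axis) for the 8 genes in each fraction, as limma estimates with 95% intervals, filled where the adjusted p was under 0.05, with a dashed line at the median of all genes. Hmgcs1 and Idi1 are filled and below 0 in total RNA, nucleus and cytosol, with Hmgcs1 at -1.07 in the cytosol, the nuclear and cytosolic intervals of Sqle are the widest, and the median gene lies above 0 in all 4 fractions.

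The membrane and cytosolic courses were then set against each other. Over 30 to 240 min the slopes differed for 0 of the 8 genes at an adjusted p under 0.05 in limma, against 6.7% of 11086 genes. At an unadjusted p under 0.05 they differed for 1, Sqle, but the share of all genes at that threshold is not given here. The difference, membrane minus cytosol, was 0.033 ± 0.10 log2 per h for Hmgcs1 (95% interval -0.17 to 0.24), 0.15 ± 0.10 for Idi1, -0.019 ± 0.062 for Lss and -0.47 ± 0.17 for Sqle (adjusted p = 0.113). For the control genes it was -0.055 ± 0.069 for Srebf1, -0.094 ± 0.045 for Srebf2, 0.073 ± 0.059 for Scap and 0.14 ± 0.10 for Insig1 (95% interval -0.066 to 0.34). A straight line hides bends, and over 30, 60 and 120 min alone 2 genes differed, Hmgcs1 with the lower slope in the membrane fraction, at -0.51 (adjusted p = 0.0254), and Insig1 with the higher, at 0.44 (adjusted p = 0.0127). The share of all genes that differed over these times is not given here, and the 6.7% above is for 30 to 240 min.

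The ratios at single times parted the 8 genes into groups. At 30 min 0 of the 8 differed between membrane and cytosol at an adjusted p under 0.05, against 6.44% of all genes. At an unadjusted p under 0.05 Sqle, Lss and Hmgcs1 did, but the share of all genes at that threshold is not given here. At 60 min 6 differed, against 31.9% of all genes, at 120 min 6, against 37.6%, and at 240 min 4, against 33.3%. These counts rest on all 3 replicates: with 1 left out they were between 3 and 4 at 60 min, between 4 and 6 at 120 min and between 1 and 2 at 240 min. Lower in the membrane fraction at 60 and 120 min were the enzyme genes Hmgcs1, Idi1 and Lss, and higher were Insig1 and Srebf1, joined by Sqle at 60 min and by Scap at 120 min.

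For Hmgcs1 the membrane ratio was 0.513, 0.519 and 0.473 at 60 min and 0.394, 0.296 and 0.360 at 120 min. The cytosolic ratio was 1.06, 1.01 and 1.13 at 60 min and 0.854, 0.775 and 0.788 at 120 min. All membrane libraries lay below all cytosolic ones at each of the 4 times. The share of all genes whose membrane and cytosolic libraries do not overlap is not given here. Such a separation, for Hmgcs1 and the genes that follow, is therefore a description and adds nothing to the tests. The log2 difference was -1.09 ± 0.13, adjusted p = 1.79e-05 at 60 min, -1.21 ± 0.13, adjusted p = 1.88e-06 at 120 min and -0.50 ± 0.13, adjusted p = 0.00635 at 240 min, where the call was lost without replicate 1, at -0.29, and without replicate 2, at -0.47. Idi1 had membrane ratios of 0.645, 0.746 and 0.600 at 60 min and cytosolic ratios of 1.03, 1.03 and 1.00, with no overlap and a difference of -0.62 ± 0.11, adjusted p = 0.000327. At 240 min the 2 fractions of Idi1 overlapped, with means of 0.165 ± 0.0108 and 0.144 ± 0.0135 (SD, n = 3).

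Lss had membrane ratios of 0.638, 0.481 and 0.593 at 120 min and cytosolic ratios of 0.848, 0.756 and 0.878, a difference of -0.54 ± 0.12, adjusted p = 0.00139, and its membrane libraries lay below its cytosolic ones at every time. The differences at 60 and 240 min were smaller, at -0.35 ± 0.12, adjusted p = 0.0316 and -0.35 ± 0.12, adjusted p = 0.0307. The former lost its call without replicate 2 or 3 and became -0.16 after centring (adjusted p = 0.183), and the latter lost its call whichever replicate was left out. The median difference of all genes was -0.19 at 60 min and -0.11 at 120 min, so the median gene also had the lower ratio in the membrane fraction.

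Insig1 showed the opposite order. Its membrane ratio was 1.00, 1.00 and 0.995 at 30 min, 1.23, 1.12 and 1.15 at 60 min, 1.26, 1.06 and 1.21 at 120 min and 0.358, 0.375 and 0.309 at 240 min. Its cytosolic ratio was 0.817, 0.926 and 0.847 at 30 min, 0.745, 0.869 and 0.821 at 60 min, 0.657, 0.628 and 0.615 at 120 min and 0.175, 0.239 and 0.200 at 240 min. The membrane libraries lay above the cytosolic ones at all 4 times, by 0.53 ± 0.11, adjusted p = 0.00108 at 60 min, 0.89 ± 0.11, adjusted p = 5e-06 at 120 min and 0.77 ± 0.11, adjusted p = 2.63e-05 at 240 min. On the authors' scaling the membrane ratio of Insig1 at 120 min was thus above 1 in all 3 replicates, while its cytosolic ratio was below 1 in all 3. Whether either departed from 1 was not tested.

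Srebf1 had membrane ratios of 0.645, 0.638 and 0.569 at 120 min and cytosolic ratios of 0.442, 0.391 and 0.384, a difference of 0.61 ± 0.17, adjusted p = 0.00745, and the call was lost without replicate 1, at 0.64, and without replicate 2, at 0.56. Its 60 min difference, 0.54 ± 0.17, adjusted p = 0.0186, lost its call whichever replicate was left out, and the fractions met at 240 min (0.258 ± 0.0603 and 0.237 ± 0.0305). Scap had 1.07, 1.03 and 0.974 in the membrane fraction at 120 min against 0.816, 0.586 and 0.721 in the cytosol, a difference of 0.55 ± 0.14, adjusted p = 0.00389, and the call was lost without replicate 2, at 0.41. At 240 min it differed by 0.47 ± 0.14, adjusted p = 0.0126, a call lost whichever replicate was left out. Sqle differed most in size, with 1.33, 0.926 and 1.33 in the membrane fraction at 60 min against 0.366, 0.838 and 0.192 in the cytosol. The groups did not overlap and the difference was 1.60 ± 0.42, adjusted p = 0.0072, but the spread of the cytosolic values was wide. Without replicate 1 the difference was 1.47 (adjusted p = 0.0948) and without replicate 3 it was 1.00 (adjusted p = 0.139).

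Srebf2 did not pass at any time, with differences of 0.11, 0.25, 0.19 and -0.15 from 30 to 240 min. The 95% interval at 120 min was -0.068 to 0.45. Its membrane libraries lay above its cytosolic ones at 60 and 120 min, but the share of all genes separated in this way is not given here. With centring the differences of Srebf2 at 60 and 120 min passed, at 0.44 and 0.35. Comparisons between genes within a library do not depend on how libraries are scaled. In all 3 membrane libraries at 120 min the ratio of Insig1 was above that of Hmgcs1, and in all 3 cytosolic libraries it was below. Times of one series share their 0 min reference, so the differences at 60, 120 and 240 min are not independent of each other. The 0 min libraries were not analysed, so whether each replicate had its own 0 min divisor is not known here. An error in a 0 min level common to the replicates would shift a fraction at all times and enters none of these p-values. With only the 6 libraries of a time in the fit, an alternative added after seeing the data, 3 genes differed at 60 min and 1 at 240 min.

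**Figure D3:**
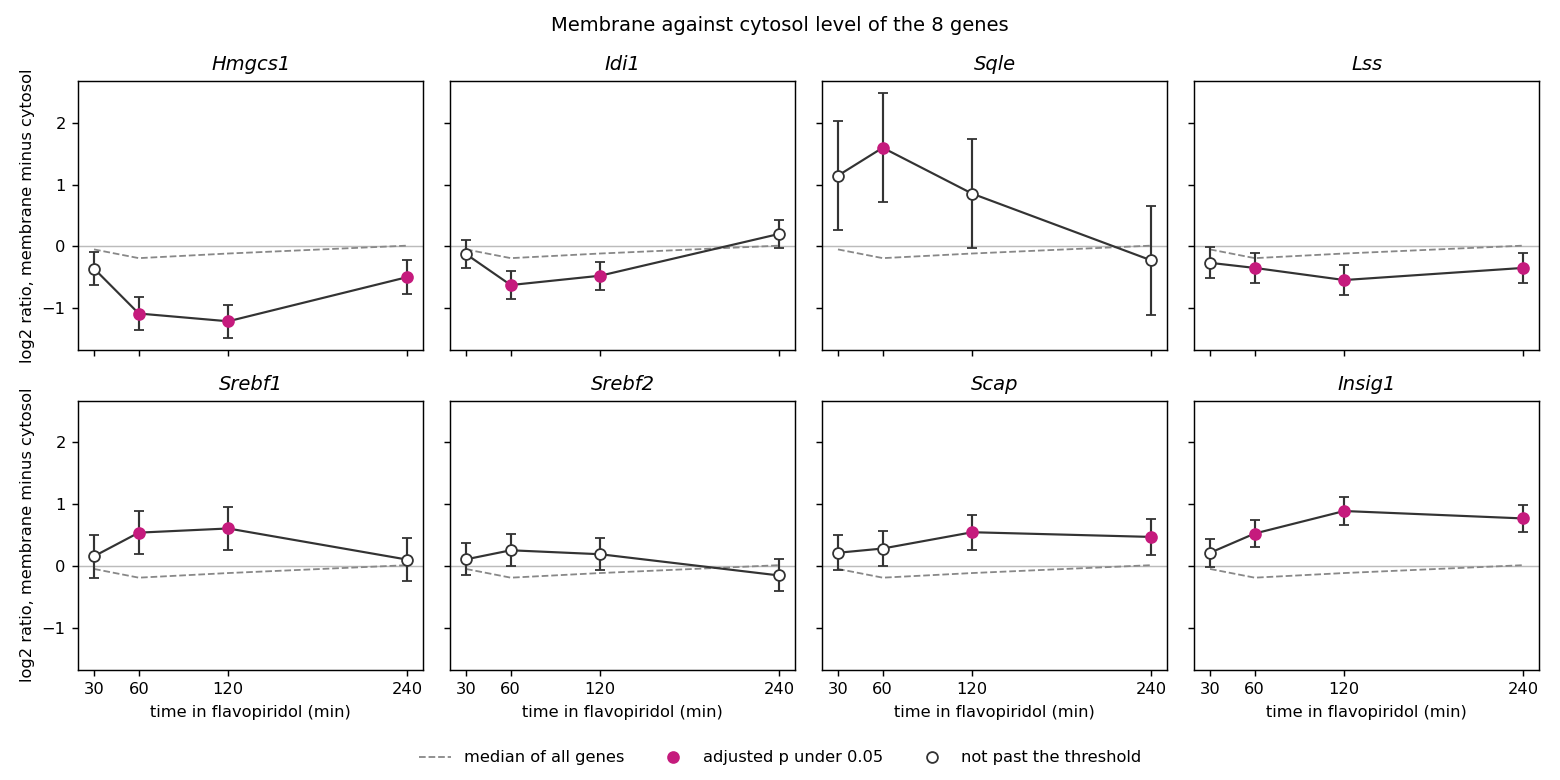
Difference in log2 ratio, membrane minus cytosol (vertical axis), against time in flavopiridol in min (horizontal axis) for the 8 genes, as limma estimates with 95% intervals, filled where the adjusted p was under 0.05, with a dashed line at the median of all genes. Hmgcs1 lies lowest, at -1.21 at 120 min, and Insig1 reaches 0.89, while Sqle has the widest intervals.

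Between nucleus and cytosol the slopes differed for 1 of the 8 genes, Idi1, against 20.6% of 11232 genes. Idi1 fell more slowly in the nucleus, by 0.38 ± 0.11, adjusted p = 0.0181 (log2 per h, nucleus minus cytosol, SE, limma). At 240 min its ratio was 0.326, 0.394 and 0.373 in the nucleus and 0.159, 0.139 and 0.133 in the cytosol, without overlap. The share of all genes whose nuclear and cytosolic libraries do not overlap is not given here, so this separation is only a description. The slope call of Idi1 was lost without replicate 2, at 0.36 (adjusted p = 0.144), and without replicate 3, at 0.36 (adjusted p = 0.169), as well as with scaling to the same sum, at 0.35 (adjusted p = 0.0547), with a pseudocount of 0.1, at 0.26 (adjusted p = 0.0533), and with a last time of 180 min (adjusted p = 0.0996). It held without the low nuclear 30 min library, at 0.35 (adjusted p = 0.0301). The other differences were 0.21 ± 0.12 for Hmgcs1, -0.38 ± 0.20 for Sqle, 0.089 ± 0.084 for Lss, -0.15 ± 0.089 for Srebf1, -0.16 ± 0.068 for Srebf2, -0.18 ± 0.082 for Scap and 0.10 ± 0.093 for Insig1, none of them past the threshold. Without that library, an alternative added after seeing the data, 4 of the 8 differed, since Srebf1, Srebf2 and Scap then passed as well, at -0.21, -0.21 and -0.23. The share of all genes that differed without that library is not given here, and the 20.6% above is for the fit with it.

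Single exponentials were fitted to each course to express the fall as a half-life, although a curve that bends downwards is not of this form. In total RNA the half-lives were 76.6 ± 6.91 min for Sqle (SD over 3 series of same-numbered libraries), 89.2 ± 5.79 for Srebf1, 119 ± 5.42 for Hmgcs1, 139.9 ± 11.3 for Idi1, 149 ± 11.9 for Insig1, 161 ± 7.39 for Lss, 201 ± 17.0 for Scap and 365 ± 112 for Srebf2. Idi1, Insig1 and Lss, neighbours in this order, had overlapping ranges of the 3 series. The order depends on the fit: a straight line on log2 gave 80.0 min for Hmgcs1, 93.9 for Idi1 and 107 for Srebf1, so that Srebf1 came after both, and over 30 to 120 min alone Hmgcs1 had 260.1, Idi1 603 and Srebf1 75.1 min. In the membrane fraction Hmgcs1 had 73.8 ± 11.3 min against 117 ± 11.3 in the cytosol, but a straight line gave 73.9 and 71.0, which turns the order, and the slopes of the fractions did not differ past the threshold. Insig1 had 197 ± 8.23 min in the membrane fraction and 124 ± 3.73 in the cytosol, with 126 and 97.8 from a straight line. The cytosolic half-life of Sqle was not determined, with 159 ± 252 min. Over 30, 60 and 120 min alone the median half-life of the 8 genes in total RNA was 217 min in place of 144, and for Insig1 in the membrane fraction and Idi1 in the nucleus no finite half-life was obtained.

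The other genes of the pathway were taken from lists drawn up by step. Without the 8 genes, 4 of 5 tested genes of the mevalonate steps fell in total RNA, 8 of 9 from squalene to cholesterol, 5 of 5 of SREBP control and 9 of 12 of sterol uptake, transport and efflux, of which 1 rose, against 56.9% of all genes falling. The fatty acid targets of SREBP gave 6 of 7. Median slopes were -0.45, -0.54, -0.61 and -0.49 log2 per h for the sterol lists in that order and -0.22 for the fatty acid list, against -0.22 over all genes. In nucleus, cytosol and membrane 4 of 4, 4 of 4 and 5 of 5 of the mevalonate list fell, 9 of 9, 7 of 8 and 8 of 9 of the list from squalene, 4 of 5, 4 of 5 and 5 of 6 of the control list, 9 of 12, 6 of 10 and 9 of 12 of the uptake list and 7 of 7, 5 of 7 and 7 of 7 of the fatty acid list, against 61.9%, 67.1% and 62.2% of all genes. From 120 to 240 min the median changes in total RNA were -0.57, -1.44, -0.73 and -0.67 for the sterol lists and -0.26 for the fatty acid list, against -0.25.

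Among the mevalonate steps Acat2, which joins acetyl-CoA units, had the highest slope in total RNA, -0.14 ± 0.043 log2 per h (SE), against -0.75 for Hmgcs1. After squalene the lowest were Msmo1, a methylsterol oxidase, at -1.04 ± 0.075, and Cyp51, the lanosterol demethylase, at -0.85 ± 0.064, and from 120 to 240 min they changed by -2.61 and -2.20, against -2.19 for Hmgcs1. The highest of that list among genes listed in all libraries was Ebp, a sterol isomerase, at -0.32 ± 0.028. In SREBP control Rnf145 and Insig2, a ubiquitin ligase and the second INSIG, had -0.81 ± 0.042 and -0.79 ± 0.05. In the uptake list Mylip, a ubiquitin ligase, had the slope -1.04 ± 0.10 and Npc2, a lysosomal sterol carrier, 0.073 ± 0.026.

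In the fatty acid list Fasn, the fatty acid synthase, and Scd2, a desaturase, had -0.47 ± 0.042 and -0.40 ± 0.037, and Acss2, which activates acetate, had -0.05 ± 0.031 and did not pass (adjusted p = 0.19).

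Outside the 8 genes, membrane and cytosol slopes differed for members of the sterol lists with the lower slope in the membrane fraction, where 1.76% of all genes had it. Among them were Ebp at -0.34 ± 0.059 log2 per h (SE, limma adjusted p = 0.000867), Nsdhl, a sterol dehydrogenase, at -0.16, Rnf139, a ubiquitin ligase of the endoplasmic reticulum, at -0.40, and Abca1, the cholesterol exporter, at -0.35.

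**Figure D4:**
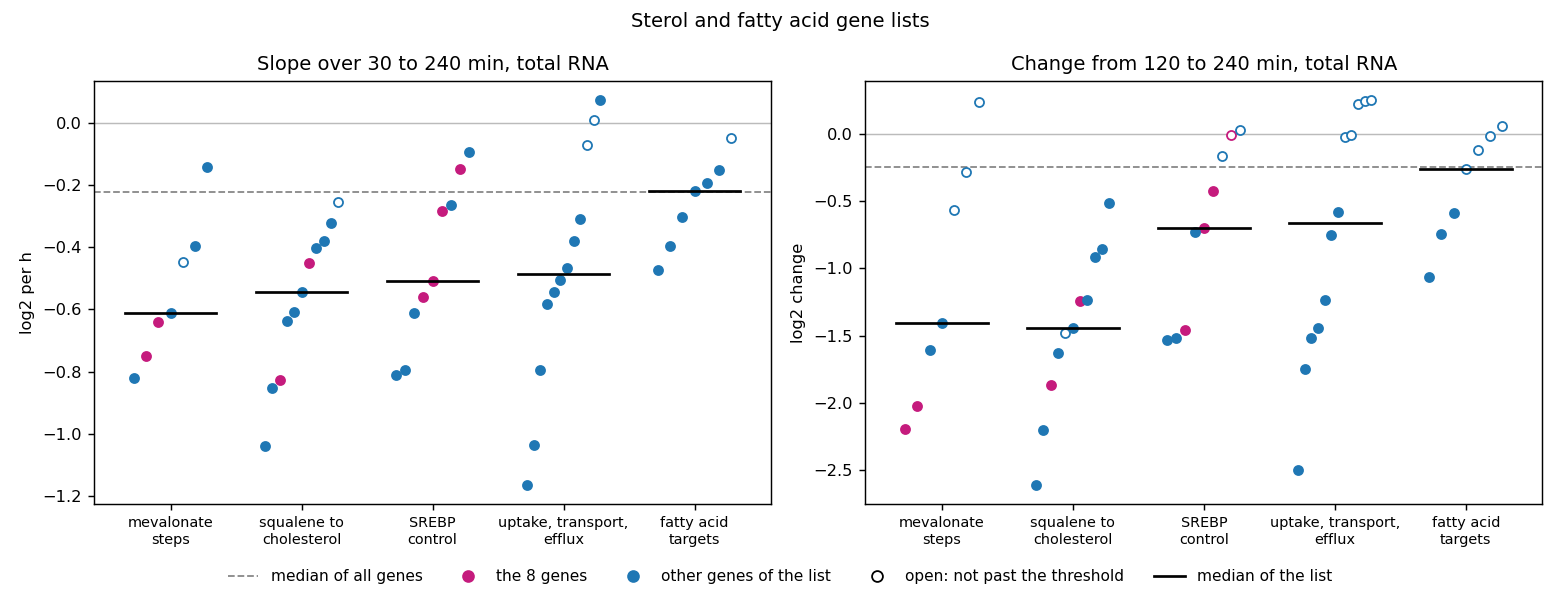
Slope over 30 to 240 min in log2 per h (left) and log2 change from 120 to 240 min (right) in total RNA for each tested gene of 5 lists (horizontal axis), with the 8 genes in pink, other genes in blue, open symbols where the adjusted p was not under 0.05, black bars at list medians and a dashed line at the median of all genes. The list medians, which here include the 8 genes, lie below the dashed line for the 4 sterol lists and close to it for the fatty acid list.

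Likeness of whole courses was measured as the root mean square difference over the 16 group means of log2 ratio, among 10693 other genes listed in all libraries. The gene nearest to Hmgcs1 other than the 8 was Aacs (0.32), and Idi1, at 0.32, was nearer still. The nearest to Idi1 was Fdft1, the squalene synthase gene (0.26), and 4 genes were nearer to Idi1 than Hmgcs1 was. The others were Tmem50b for Insig1 (0.21), Entpd7 for Sqle (0.36), Lrp10 for Srebf1 (0.16), Ubac2 for Srebf2 (0.11), Lama5 for Scap (0.17) and Srm for Lss (0.15). For Srebf2 3413 genes were nearer than the nearest of the other 7, Scap. This measure takes in how far a transcript fell as well as the shape of its course, so it does not compare shapes alone.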

How the data were processed

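Polyadenylated RNA of E14TG2a cells was sequenced in 48 libraries, 3 for each of 4 fractions at each of 4 times. Per the labels and the published methods, the authors aligned reads to mm10 with STAR 2.7.6, quantified genes with RSEM 1.3.3, scaled libraries on genes with half-lives over 14 h and deposited, per library, the ratio of each gene to its level at 0 min. The column header calls these values normalized read counts, but they lie around 1 and are treated as ratios. Genes at 0 were left out of the deposited ratio files, whole reads were not recovered, and the depth of each library is unknown, so no counting interval is given. The library kit was stranded. The methods name a GENCODE annotation for the metabolic labelling data, and for these libraries neither the annotation release nor the strand setting of the counting is given in the sources used here. Sample titles and the analysis methods give 240 min as the last time, and the protocol text gives 180 min. The time in the titles was used, with the other as an alternative.

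Of 23862 gene identifiers 23786 matched a symbol. Ratios were taken to log2 without a pseudocount, genes listed in all libraries of a fit were kept, and slopes, steps and fraction differences were tested with limma 3.58.1 in R 4.3.3 (lmFit and eBayes with trend, two-sided), with Benjamini-Hochberg adjustment over all genes of the fit and a threshold of 0.05. Slopes used the 12 libraries of a fraction, and fraction differences the 24 libraries of both. Changes are relative to the authors' scaling. Half-lives came from a least-squares exponential with a free start, computed with scipy 1.17.1 in Python 3.11.15. The 8 genes and the gene lists were chosen with earlier results of these data known. The 8 genes were named in every comparison. From each pathway list the 2 genes with the lowest and the 1 with the highest slope in total RNA, among those listed in all libraries, were named, as were genes of the sterol lists that passed the membrane against cytosol slope test. Some genes and sites that these rules select are not reported here. Sequence features came from GENCODE M21 and RefSeq promoters. Scripts were tested on simulated data. There, slope changes of 0.5 log2 per h were recovered in 71% of 100 changed genes in total RNA. For membrane against cytosol the share was 68%. Level differences of 1 log2 at 60 min were recovered in 56%, and a log2 change of 1 from 120 to 240 min in 50%. These shares hold for data in which few genes changed, whereas 56.9% of 12762 genes fell in total RNA here. The share of such changes that the reported tests recover was not tested. Alternatives were a pseudocount of 0.1, other gene filters, centring on the median gene, scaling to one sum, a replicate block, limma without trend, leaving out each replicate, 30 to 120 min alone and a last time of 180 min.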

Additional observations from a re-analysis of the deposited data

Results flagged for a closer look

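A difference between fractions was picked out where limma's test of that difference, over all genes, had an adjusted p under 0.05. In log2 ratio, membrane minus cytosol, these were 0.54 for Srebf1, 1.60 for Sqle, 0.53 for Insig1, -0.35 for Lss, -0.62 for Idi1 and -1.09 for Hmgcs1 at 60 min. At 120 min they were 0.61 for Srebf1, 0.55 for Scap, 0.89 for Insig1, -0.54 for Lss, -0.47 for Idi1 and -1.21 for Hmgcs1. At 240 min they were 0.47 for Scap, 0.77 for Insig1, -0.35 for Lss and -0.50 for Hmgcs1. In slope, nucleus minus cytosol, Idi1 was picked out at 0.38 log2 per h. The shares of all genes that met the same threshold were 31.9%, 37.6% and 33.3% for the levels and 20.6% for the slope. Libraries of one series share their 0 min reference, so the 3 times do not give independent tests. An error in a 0 min level common to the replicates would not enter these tests. Insig1 at 240 min was 0.77 with only the 6 libraries of that time in the fit (adjusted p = 0.0392). What lies behind these differences was not tested.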

How the results depend on the processing

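Of 1727 values of single genes under the alternatives, 1445 kept direction and side of the threshold or moved by less than the spread, 138 lost and 18 gained a call, 102 half-lives moved and 24 turned sign. Where no reason is given, the cause was not tested. Leaving out a replicate leaves fewer samples in the fit.

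After centring of every library on the median gene, 5 of the 8 genes fell in each of the 3 separated fractions. Of all genes 3897 of 13343 nuclear, 3887 of 11979 cytosolic and 3837 of 12408 membrane ones did. With centring 2 of the 8 differed in slope between nucleus and cytosol, where 1132 of 11232 genes had the lower and 1919 the higher slope in the nucleus. In level at 30 min 1 of the 8 differed, where 471 of 11086 genes were lower and 608 higher in the membrane fraction. With centring 5 of the 8 steepened in nucleus and 5 in membrane. The calls between successive times, counted over genes and intervals, were 5 for total RNA, 5 for cytosol and 8 for membrane, in place of 9, 13 and 13. Scaling to the same sum gave 6 such calls for cytosol and 8 for membrane, 5 genes that steepened in the membrane fraction and 2 that differed in slope between nucleus and cytosol, Srebf2 and Scap, with Idi1 no longer called. With the same sum 1604 of 11232 genes had the lower and 1121 the higher slope in the nucleus. A pseudocount of 0.1 gave 0 of the 8 for the slope between nucleus and cytosol and 1 for the level at 30 min. Over 30 to 120 min alone 1 gene fell in nucleus and 5 in membrane, 2 differed in slope between membrane and cytosol and 0 between nucleus and cytosol. A last time of 180 min gave 6 that steepened in the membrane fraction and 0 for the slope between nucleus and cytosol. With only the 6 libraries of a time, 3 genes differed at 60 min and 1 at 240 min, and without the low nuclear library 4 differed in slope between nucleus and cytosol and 11 calls between times were made in the nucleus. These last alternatives and the test of steepening were added after seeing the data.

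With 1 replicate left out, counts ranged from 0 to 3 for the slope between nucleus and cytosol, 3 to 4 for the level at 60 min and 1 to 2 at 240 min. Calls between times ranged from 5 to 9 for total RNA, 4 to 8 in the nucleus, 5 to 7 for cytosol and 7 to 8 for membrane. Genes that steepened ranged from 0 to 2 for total RNA, 0 to 2 for nucleus, 0 to 0 for cytosol and 0 to 1 for membrane. The median cytosolic half-life ranged from 124 to 137 min.

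Median half-lives of the 8 genes in total RNA, cytosol and membrane were 113, 113 and 106 min from a straight line on log2, 154, 188 and 202 with the start fixed at 1, and 121, 114 and 98.0 with a last time of 180 min. In total RNA, nucleus, cytosol and membrane they were 217, 592, 276 and 177 over 30 to 120 min, and 262, 337, 278 and 234 with centring, where Srebf2 had no finite half-life.

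Signs turned for the slope of Srebf2 with centring (0.082 for total RNA, 0.047 for nucleus, 0.17 for cytosol and 0.056 for membrane) and with the same sum (0.013 in total RNA and 0.11 in the cytosol), and for its change from 120 to 240 min (0.24, 0.076 with the same sum and 0.10 without replicate 1 in total RNA, where the lowest with 1 left out was -0.12, and 0.36 and 0.17 in the cytosol). Over 30 to 120 min alone signs turned for the nuclear slope of Idi1 (0.052), the membrane slope of Insig1 (0.13), the membrane minus cytosol slopes of Hmgcs1 (-0.51), Srebf1 (0.27), Srebf2 (0.038) and Idi1 (-0.18), and the nucleus minus cytosol slopes of Srebf1 (0.19) and Srebf2 (0.087). The membrane minus cytosol slope of Hmgcs1 also turned with the same sum (-0.0054), without replicate 3 (-0.058) and at 180 min (-0.015), and that of Lss with the pseudocount (0.00059) and without replicate 1 (0.015, the highest with 1 left out, against -0.063 for the lowest).

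Same-numbered libraries mostly did not deviate together: the correlation had a median of 0.023 over 18 pairs of times in total RNA, of which 4 were over 0.1 with a highest of 0.27, and 0.049 over 12 pairs of membrane and cytosol, of which 1 was over 0.1, so the numbers were not taken as pairs. A replicate block left 8 genes falling in every fraction, gave 5 differing at 60 min and 3 at 240 min, and 2 that steepened in the nucleus. A block of harvest gave 2 for the slope between nucleus and cytosol.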
